A study of Mus musculus with 12 samples.

Results

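The genes described here are 50 genes of mitosis and the G2/M phase, the stretch of the cell cycle in which a cell that has copied its DNA enters mitosis, separates its chromosomes and divides. They were chosen by name, as kinases, cyclins, spindle, kinetochore, checkpoint and cytokinesis genes, with earlier results of these data known. Of the 50, 49 could be measured among the 22180 genes tested. Ccnb1, the gene of cyclin B1, was not analysed here, because the array annotation used listed no probe set under its symbol. The samples were primary mouse macrophages, each hybridised to a 1-colour array, with 12 arrays in 4 groups of 3. KO TAMs were Cd36 knockout macrophages cultured for 72 h with 5TGM1, a mouse multiple myeloma line, and WT TAMs were wild type macrophages cultured in the same way, TAM standing for tumour-associated macrophage. KO macrophages and WT macrophages were the same 2 genotypes with no myeloma cells. Cd36 is a surface receptor through which macrophages take in fatty acids and oxidised lipoproteins. The comparisons ask what the loss of Cd36 changes in each culture and what co-culture changes in each genotype. The labels used here state neither the age and sex of the mice, nor the tissue of origin, the knockout allele, the culture time of macrophages alone or the way myeloma cells were removed. They do not say that the 3 samples of a group were separate animals or cultures, so a p-value covers the spread among those samples alone, and that spread may be technical.

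As background, cyclin-dependent kinase 1 joined to a B-type cyclin drives a cell into mitosis, and the Polo and Aurora kinases build the spindle and attach it to the kinetochores of the chromosomes. The spindle assembly checkpoint holds back the anaphase-promoting complex (APC/C), a ubiquitin ligase, until all chromosomes are attached. Once this hold ends, the APC/C with its activator Cdc20 marks cyclin B and the inhibitor of separase for destruction, and the cell divides by cytokinesis. Most of these genes are transcribed only late in the cell cycle, through the factors B-Myb (Mybl2) and FoxM1 and the MuvB complex, and are repressed in resting cells by the DREAM complex. MuvB binds a promoter motif called the CHR element, and the factor NF-Y binds CCAAT boxes upstream of it. Macrophages divide in culture in response to the growth factor M-CSF, and many mature macrophages do not divide.

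The promoters of 5 of these genes are shown because the genes moved together on these arrays and most of their promoters carry both motifs. The sequences and the gene starts are those of RefSeq, assembly GRCm38.p6, and each runs 5′ to 3′ on the strand of its gene, from 250 bases before the start to 50 after it. Capitals mark TTTGAA, the letters searched for the CHR element, and CCAAT, each on either strand, so that TTCAAA and ATTGG are the same motifs on the other strand. The motifs were searched separately, and neighbouring matches may share bases.
Cdk1 (chr10:69352863-69353162, minus strand), the kinase of mitotic entry: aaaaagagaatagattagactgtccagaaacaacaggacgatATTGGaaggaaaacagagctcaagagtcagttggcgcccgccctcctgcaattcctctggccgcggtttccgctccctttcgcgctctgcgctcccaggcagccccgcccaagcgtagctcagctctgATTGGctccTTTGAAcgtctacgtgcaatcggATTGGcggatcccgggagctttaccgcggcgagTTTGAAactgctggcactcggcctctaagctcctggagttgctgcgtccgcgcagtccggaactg
Ccnb2 (chr9:70421505-70421804, minus strand), cyclin B2, its partner: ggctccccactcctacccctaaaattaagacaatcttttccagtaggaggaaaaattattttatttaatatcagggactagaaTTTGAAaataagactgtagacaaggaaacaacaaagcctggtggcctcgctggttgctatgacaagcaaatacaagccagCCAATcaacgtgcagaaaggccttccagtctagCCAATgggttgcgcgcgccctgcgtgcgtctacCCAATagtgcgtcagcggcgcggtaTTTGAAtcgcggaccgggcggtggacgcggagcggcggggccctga
Plk1 (chr7:122159185-122159484, plus strand), Polo-like kinase 1: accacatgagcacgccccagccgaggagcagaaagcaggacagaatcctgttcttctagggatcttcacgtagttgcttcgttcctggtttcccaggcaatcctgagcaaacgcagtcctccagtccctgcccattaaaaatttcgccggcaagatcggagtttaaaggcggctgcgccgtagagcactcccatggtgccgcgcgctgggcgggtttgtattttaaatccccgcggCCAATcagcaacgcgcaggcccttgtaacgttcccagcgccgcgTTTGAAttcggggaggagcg
Ube2c (chr2:164769679-164769978, plus strand), the ubiquitin-conjugating enzyme of the APC/C: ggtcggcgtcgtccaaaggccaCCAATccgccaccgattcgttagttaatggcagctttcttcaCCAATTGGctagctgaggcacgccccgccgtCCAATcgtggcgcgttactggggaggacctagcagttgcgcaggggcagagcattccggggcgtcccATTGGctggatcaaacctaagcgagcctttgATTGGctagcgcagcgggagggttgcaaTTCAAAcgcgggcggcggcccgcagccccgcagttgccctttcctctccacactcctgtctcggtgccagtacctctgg
Bub1 (chr2:127831810-127832109, minus strand), a checkpoint kinase: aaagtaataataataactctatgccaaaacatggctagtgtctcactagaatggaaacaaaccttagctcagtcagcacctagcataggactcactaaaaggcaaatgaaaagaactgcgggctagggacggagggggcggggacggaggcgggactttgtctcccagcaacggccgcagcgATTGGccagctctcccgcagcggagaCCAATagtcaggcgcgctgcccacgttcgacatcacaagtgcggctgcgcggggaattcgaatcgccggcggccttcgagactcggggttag
Cdk1 and Ccnb2 each held 2 matches to the CHR element, Plk1 and Ube2c held 1 each and Bub1 held none. In Ccnb2 the nearest CHR match began 4 bases after the start, downstream of 3 CCAAT matches. In Plk1 it began 30 bases after the start. Of Bub1 this says only that these letters were not in this window.

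RefSeq gave 42 promoter windows for 40 of the 50 genes, Ccnb1 included. A CHR match on either strand was found in 32 of the 42 windows (76.2%) and in 17.9% of all 32851 windows of the same length. A CCAAT match was found in 31 windows (73.8%), against 37.4% of all windows. Both motifs stood in 27 windows (64.3%), against 6.95% of all windows. On the gene's own strand and within 50 bases of the start, the CHR match was found in 24 windows (57.1%), against 2.72% of all windows. The 25 bases after the start held it in 31.0% of the members' windows and 0.706% of all windows. CCAAT matches were most frequent from 75 to 50 bases before the start, at 23.8%. All windows had their highest CCAAT share in the same stretch, at 3.77%. Such matches are a description of the letters and not evidence of a bound factor.

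**Figure D1:**
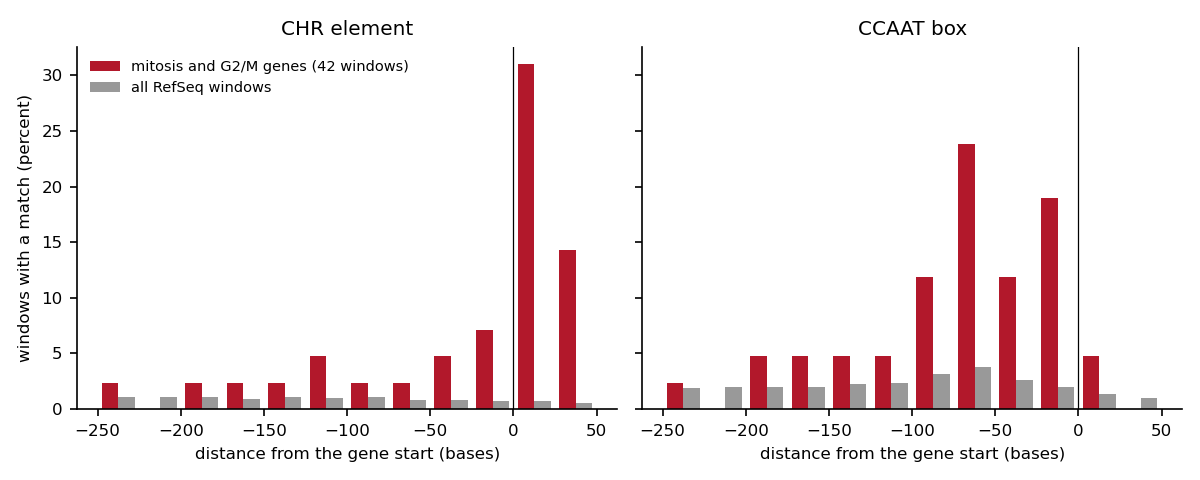
Percent of promoter windows with a match to the CHR element (left) and the CCAAT box (right) on the gene's strand, by distance from the gene start in bins of 25 bases, for the 42 windows of mitosis and G2/M genes (red) and all 32851 RefSeq windows (grey). CHR matches of the mitosis and G2/M genes gathered just after the start, where 31.0% of their windows held one, and CCAAT matches lay mostly upstream.

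Levels are given as log2 of the deposited intensity, differences are on the log2 scale with their standard error (±) from limma, the KO or TAM group being on top, and a gene is said to have passed the test, or to have risen or fallen, at an adjusted p under 0.05 over all 22180 genes. Cd36 itself read 8.45 to 9.66 in KO TAMs, against 12.14 to 12.53 in WT TAMs, and 8.63 to 8.79 in KO macrophages, against 12.10 to 12.15 in WT macrophages, and was 10.6-fold and 10.5-fold lower in KO TAMs and KO macrophages. The genotypes also differed in sex-linked genes: Xist averaged 4.12 and 4.32 in KO TAMs and KO macrophages, against 11.18 in WT TAMs and in WT macrophages, and Y-linked Uty, Kdm5d and Eif2s3y were 26.5-fold to 95.0-fold higher in KO cells, so that the knockout and the sex of the donor animals cannot be told apart. The mean of 14 macrophage markers lay between 11.21 and 11.51 on all arrays, with members called in both directions: 2 were higher and 0 lower in KO TAMs than in WT TAMs, and 3 were higher and 1 lower in KO macrophages than in WT macrophages, among them Mertk (0.85) and Fcgr1 (-1.0). With co-culture 5 rose and 2 fell in KO cells, and 4 rose and 3 fell in WT cells. Of all genes, 5.03% were called higher and 7.19% lower in KO TAMs than in WT TAMs. In KO macrophages against WT macrophages the shares were 5.19% and 6.13%. With co-culture 2.9% of all genes rose and 3.63% fell in KO cells, and 5.89% rose and 5.66% fell in WT cells. The mean of 18 myeloma and plasma cell markers lay between 5.73 and 6.02 on all arrays, and Jchain and Tnfrsf17 read at most 3.84 and 4.09. Others of the list read higher, with group means of 11.82 to 12.38 for Slamf7, 9.75 to 10.20 for Xbp1 and 6.04 to 9.10 for Cd79b. Whether any of these readings came from myeloma cells was not tested. Of these 18, Cd79b and Slamf7 were higher in KO TAMs than in WT TAMs (1.50 and 0.38), and Sdc1 and Derl3 were lower in KO macrophages than in WT macrophages (-1.19 and -0.77). None of the 18 rose with co-culture, while 1 fell in KO cells and 3 fell in WT cells, Cd79b by 1.82 on the log2 scale. For 18 markers, the absence of rises and the 1 fall in KO cells are close to the shares over all genes. The mean of 19 stromal and fibroblast markers moved with genotype, at 5.99 to 7.30 in KO TAMs, against 7.84 to 8.89 in WT TAMs, and 5.59 to 5.68 in KO macrophages, against 7.30 to 7.47 in WT macrophages. The TAM arrays stood apart within their groups: WT TAM 2 had the highest stromal mean of all arrays (8.89), and among the KO TAMs array 1 had the highest stromal mean (7.30) and array 3 the lowest (5.99).

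Mitosis and G2/M genes were lower in knockout cells throughout. All 49 measured genes fell in KO TAMs relative to WT TAMs, where 7.19% of all genes were called lower, and none rose, where 5.03% of all genes were called higher. In macrophages 45 of the 49 fell in KO cells relative to WT cells, against 6.13% of all genes called lower, and none rose, against 5.19% called higher. The median difference over the 49 genes was -1.92 in TAMs, a 3.79-fold lower level, and -1.30 in macrophages, a 2.45-fold lower level, while the median over all genes was 0.02 and 0.04. On every KO array the level of each of the 49 genes was below that on every WT array of the same culture, which held for 11.8% of all genes in TAMs and 17.7% in macrophages. Taking both cultures, all 6 KO arrays lay below all 6 WT arrays for 49 of 49 genes and for 4.36% of all genes. The list was chosen with earlier results of these data known, so its counts beside all genes are a description only. In these cultures of many cells, fewer dividing cells and less RNA per dividing cell cannot be told apart.

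The stromal markers fell with the same contrasts: 14 of 19 passed as lower in KO TAMs than WT TAMs and 10 of 19 in KO macrophages than WT macrophages. The mitosis and stromal means ran together on some arrays and not on others. In KO TAMs 1, 2 and 3 the stromal means were 7.30, 7.01 and 5.99, and the means over the 49 mitosis genes were 6.87, 6.69 and 6.09. WT TAM 2 had the highest stromal mean and the lowest mitosis mean (7.82) of the WT TAMs. WT macrophage 3, which differs from KO TAM 1 in genotype and culture, had a stromal mean of 7.30 and a mitosis mean of 8.13. Whether stromal content bears on the levels of the mitosis genes was not tested. With the stromal mean of each array as a covariate, an alternative added after the data were seen, the median difference was -2.02 in TAMs and -1.37 in macrophages, but 27 and 2 of the 49 genes passed the test. In that fit 2.36% and 1.04% of all genes passed, against 12.2% and 11.3% without the covariate. Within each culture the stromal means of KO and WT arrays did not overlap. The fit therefore cannot tell genotype and stromal level apart, and no conclusion is drawn from its medians.

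**Figure D2:**
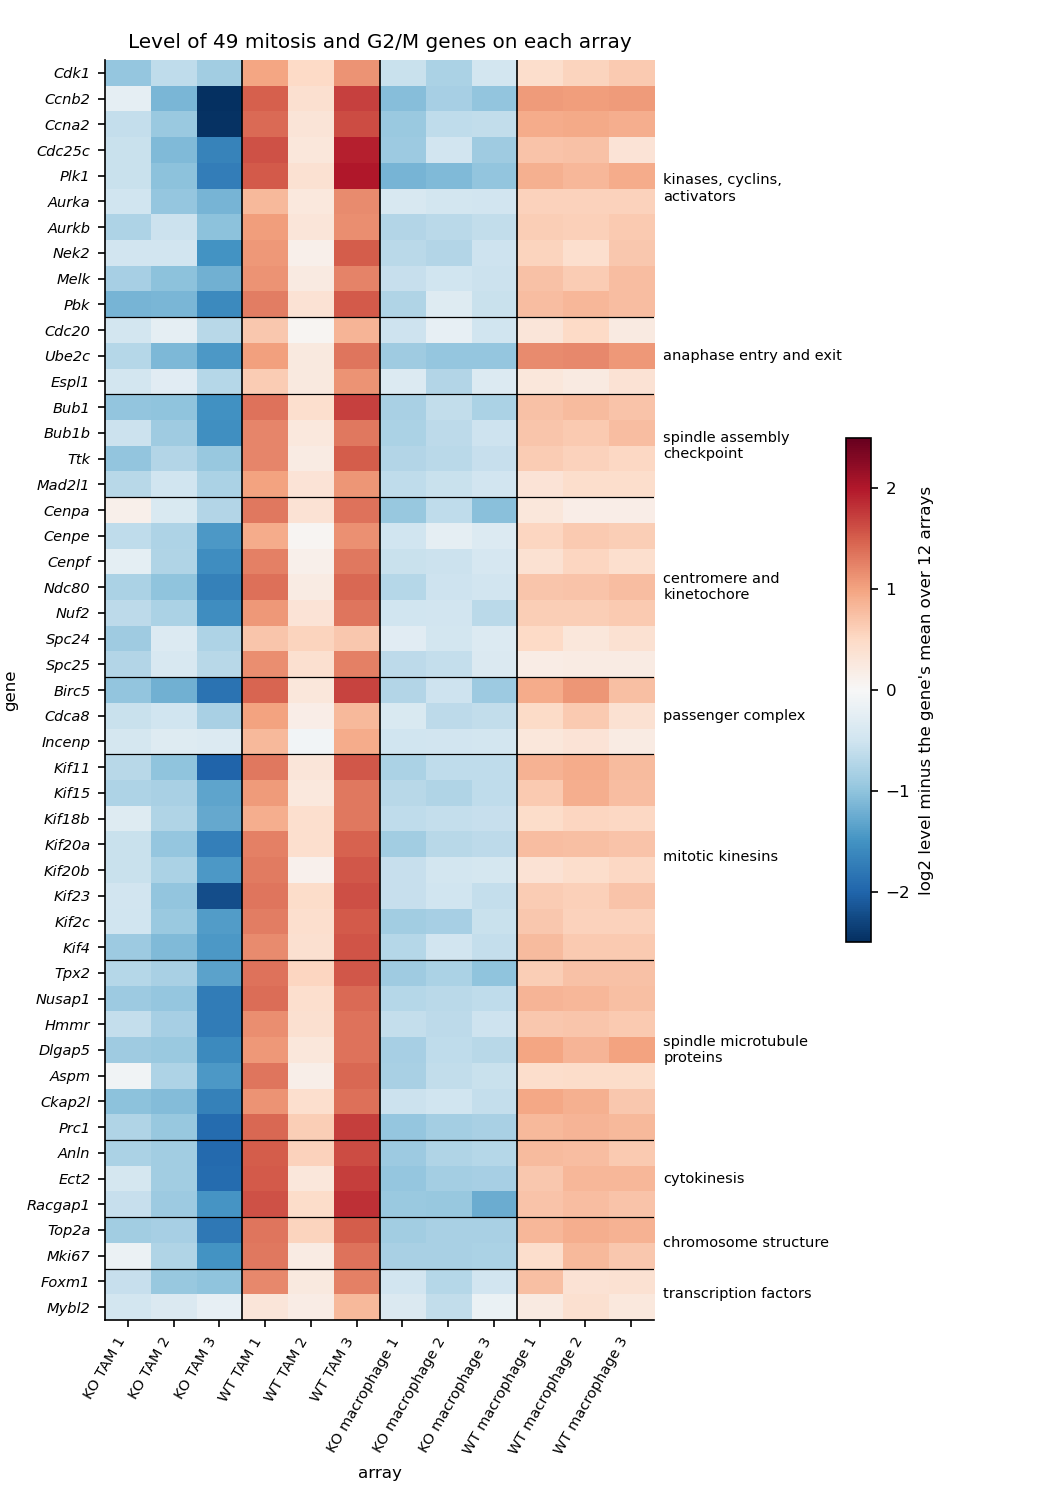
Log2 level of each of the 49 genes (rows, grouped by role) on each of the 12 arrays (columns, in groups of 3), as the difference from the gene's mean over the 12 arrays. The 6 KO arrays (columns 1 to 3 and 7 to 9) are below the 6 WT arrays in every row, and within the WT TAMs array 2 is the palest column.

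Among the kinases, cyclins and their activators, 10 of 10 measured genes fell in both genotype comparisons, with median differences of -2.11 in TAMs and -1.31 in macrophages. Cdk1, the kinase of mitotic entry, read 6.41, 6.73 and 6.49 in KO TAMs, against 8.35, 7.87 and 8.49 in WT TAMs. In macrophages it read 6.80, 6.58 and 6.90 in KO macrophages, against 7.81, 7.92 and 8.01 in WT macrophages. The KO TAM arrays overlapped the KO macrophage arrays, and Cdk1 was 3.23-fold lower in KO TAMs (difference -1.69 ± 0.15, adjusted p = 0.00011) and 2.23-fold lower in KO macrophages (adjusted p = 0.000976). Ccnb2, one of its cyclins, showed the largest fall of all 49 genes in TAMs, reading 8.38, 7.46 and 6.04 in KO TAMs, against 10.09, 9.0 and 10.31 in WT TAMs. The KO TAM arrays were spread over more than 2 log2 units, with array 3 lowest, and the difference was -2.50 ± 0.47 (adjusted p = 0.00464). In macrophages, where the arrays of a group lay close together, Ccnb2 read 7.53, 7.77 and 7.60 in KO macrophages, against 9.67, 9.65 and 9.66 in WT macrophages, a difference of -2.03. Ccna2, the cyclin of S and G2 phases, read 7.92, 7.59 and 6.05 in KO TAMs, against 9.94, 8.84 and 10.14 in WT TAMs, and 7.59, 7.89 and 7.90 in KO macrophages, against 9.45, 9.47 and 9.42 in WT macrophages. It was 5.49-fold lower in KO TAMs and 3.15-fold lower in KO macrophages.

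Plk1, which promotes mitotic entry and spindle assembly, was among the largest falls in both cultures. It read 6.93, 6.46 and 5.76 in KO TAMs, against 9.03, 7.86 and 9.49 in WT TAMs, and 6.33, 6.38 and 6.51 in KO macrophages, against 8.38, 8.32 and 8.43 in WT macrophages. The differences were -2.41 ± 0.35 in TAMs and -1.97 ± 0.35 in macrophages (adjusted p = 0.00112 and 0.00413). Cdc25c, the phosphatase that activates Cdk1, read 5.13, 4.57 and 4.01 in KO TAMs, against 7.27, 5.96 and 7.62 in WT TAMs. WT TAM 2 was more than 1 log2 unit below the other WT TAMs, yet above every KO array. In macrophages Cdc25c read 4.77, 5.21 and 4.80 in KO macrophages, against 6.40, 6.41 and 6.03 in WT macrophages, a 2.56-fold lower level in KO cells against 5.20-fold lower in KO TAMs. All its KO readings lay below 5.34, the median level over all genes, so the size of its fall is less certain. Pbk, a mitotic kinase, read 6.03, 6.05 and 5.60 in KO TAMs, against 8.47, 7.55 and 8.72 in WT TAMs, and 6.43, 6.87 and 6.63 in KO macrophages, against 7.96, 8.02 and 7.95 in WT macrophages. All 3 KO TAM arrays were below the 3 KO macrophage arrays for Pbk. Aurkb, the kinase of the chromosomal passenger complex, read 7.35, 7.58 and 7.10 in KO TAMs, against 9.16, 8.42 and 9.28 in WT TAMs, and 7.40, 7.45 and 7.50 in KO macrophages, against 8.73, 8.72 and 8.77 in WT macrophages, and was 3.06-fold and 2.44-fold lower in KO TAMs and KO macrophages. Aurka, Nek2 and Melk differed by -1.63, -1.73 and -1.88 in TAMs.

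The 3 genes of anaphase entry and mitotic exit fell in both comparisons, and Ube2c, which supplies ubiquitin to the APC/C, fell most in macrophages of all 49 genes. Ube2c read 6.90, 6.48 and 6.17 in KO TAMs, against 8.62, 7.85 and 8.95 in WT TAMs. In macrophages it read 6.71, 6.64 and 6.64 in KO macrophages, against 8.78, 8.80 and 8.70 in WT macrophages, with the 3 arrays of each group close together. It was the only 1 of the 49 genes with a larger fall in macrophages (-2.09 ± 0.24, 4.26-fold, adjusted p = 0.000388) than in TAMs (-1.96 ± 0.24, 3.89-fold, adjusted p = 0.000379). Cdc20, the APC/C activator, and Espl1, separase, had smaller differences, of -0.98 and -1.15 in TAMs and -0.75 and -0.76 in macrophages.

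Of the spindle assembly checkpoint, 4 of 4 genes fell in both comparisons. Bub1, a kinase that recruits checkpoint proteins to the kinetochore, read 6.52, 6.49 and 5.97 in KO TAMs, against 8.85, 7.92 and 9.20 in WT TAMs, and 6.68, 6.88 and 6.70 in KO macrophages, against 8.22, 8.29 and 8.20 in WT macrophages. It was 5.03-fold lower in KO TAMs (adjusted p = 0.000239) and 2.80-fold lower in KO macrophages (adjusted p = 0.00354). Bub1b, Ttk and Mad2l1, which act in the same checkpoint, had differences of -1.92, -1.87 and -1.48 in TAMs and of -1.36, -1.24 and -0.97 in macrophages.

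Centromere and kinetochore genes had a median difference of -1.65 in TAMs and -0.95 in macrophages. All 7 fell in TAMs, and 6 of 7 in macrophages, Cenpf at -0.95 ± 0.33 having an adjusted p of 0.0857. Spc25, a subunit of the Ndc80 complex that binds spindle microtubules, read 6.37, 6.70 and 6.41 in KO TAMs, against 8.28, 7.50 and 8.37 in WT TAMs. In macrophages it read 6.45, 6.51 and 6.74 in KO macrophages, against 7.29, 7.32 and 7.32 in WT macrophages. The 3 KO TAM and 3 KO macrophage arrays overlapped, while every WT TAM array was above every WT macrophage array, and the genotype difference was -1.55 in TAMs and -0.74 in macrophages. Of the other subunits of that complex, Ndc80 had the largest difference in TAMs (-2.17), and Spc24 and Nuf2 differed by -1.31 and -1.92. Cenpa, the histone variant that marks centromeres, differed by -1.34, and Cenpe, a kinetochore motor, by -1.65.

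The 3 genes of the chromosomal passenger complex, which corrects faulty attachments, fell in both comparisons. Birc5, survivin, read 4.93, 4.72 and 4.07 in KO TAMs, against 7.37, 6.19 and 7.60 in WT TAMs. In macrophages it read 5.18, 5.39 and 5.00 in KO macrophages, against 6.84, 7.02 and 6.66 in WT macrophages. The fall was 5.58-fold in TAMs and 3.14-fold in macrophages (adjusted p = 0.000487 and 0.00589). As for Cdc25c, the KO TAM readings lay below the median level over all genes (5.34), so the size of the fall is less certain. Incenp, the scaffold of the complex, and Cdca8, borealin, had smaller differences of -0.93 and -1.28 in TAMs.

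The 8 mitotic kinesins, motor proteins that slide and shorten spindle microtubules, all fell in KO TAMs, with differences between -1.67 (Kif18b) and -2.36 (Kif23), and 6 of 8 fell in KO macrophages. Kif11, the motor that pushes the spindle poles apart, read 7.58, 7.26 and 6.25 in KO TAMs, against 9.57, 8.56 and 9.81 in WT TAMs, and 7.46, 7.63 and 7.63 in KO macrophages, against 9.14, 9.20 and 9.05 in WT macrophages. It was 4.87-fold and 2.93-fold lower in KO TAMs and KO macrophages. Kif23, which bundles the central spindle, read 7.67, 7.17 and 5.94 in KO TAMs, against 9.49, 8.61 and 9.77 in WT TAMs. KO TAM 3 was more than 1 log2 unit below the other KO TAMs. In macrophages Kif23 read 7.58, 7.65 and 7.56 in KO macrophages, against 8.79, 8.74 and 8.87 in WT macrophages, and the difference of -1.20 ± 0.37 did not pass the test (adjusted p = 0.056), nor did that of Kif20b (-0.93 ± 0.31, adjusted p = 0.0768). The standard error is shared by the 4 groups, and for Kif23 the SD was 0.89 in KO TAMs and 0.61 in WT TAMs, but 0.05 in KO macrophages and 0.07 in WT macrophages.

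All 7 spindle microtubule proteins fell in KO TAMs and 6 of 7 in KO macrophages. Prc1, which cross-links the microtubules of the central spindle, read 7.68, 7.48 and 6.50 in KO TAMs, against 9.86, 9.04 and 10.15 in WT TAMs, and 7.45, 7.58 and 7.61 in KO macrophages, against 9.25, 9.27 and 9.23 in WT macrophages. It was 5.51-fold lower in KO TAMs (adjusted p = 0.00037) and 3.26-fold lower in KO macrophages (adjusted p = 0.00345). Tpx2, the activator of Aurora A on the spindle, read 7.80, 7.69 and 7.17 in KO TAMs, against 9.86, 9.05 and 10.07 in WT TAMs, and 7.63, 7.72 and 7.51 in KO macrophages, against 9.13, 9.24 and 9.24 in WT macrophages. Nusap1, a microtubule-binding protein, read 6.91, 6.85 and 6.09 in KO TAMs, against 9.21, 8.24 and 9.25 in WT TAMs, and 7.11, 7.16 and 7.19 in KO macrophages, against 8.68, 8.66 and 8.58 in WT macrophages. Tpx2 and Nusap1 had differences of -2.11 and -2.28 in TAMs and of -1.59 and -1.49 in macrophages. Dlgap5, a spindle assembly factor, read 7.18, 7.14 and 6.48 in KO TAMs, against 9.15, 8.36 and 9.44 in WT TAMs, and 7.24, 7.43 and 7.38 in KO macrophages, against 9.05, 8.92 and 9.07 in WT macrophages, with a 4.13-fold fall in TAMs and a 3.17-fold fall in macrophages. Aspm, a spindle pole protein, fell in TAMs (-1.74) and had a difference of -1.12 ± 0.34 in macrophages (adjusted p = 0.0544). Hmmr and Ckap2l differed by -2.04 and -2.24 in TAMs.

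The 3 cytokinesis genes showed the largest median fall of any role in TAMs (-2.28) and in macrophages (-1.65). Anln, anillin of the contractile ring, read 7.10, 7.03 and 5.95 in KO TAMs, against 9.40, 8.47 and 9.52 in WT TAMs, and 6.99, 7.14 and 7.18 in KO macrophages, against 8.68, 8.66 and 8.55 in WT macrophages. Ect2, the exchange factor that activates RhoA at the cleavage plane, read 8.59, 8.16 and 7.11 in KO TAMs, against 10.56, 9.32 and 10.76 in WT TAMs, and 8.07, 8.19 and 8.21 in KO macrophages, against 9.71, 9.87 and 9.86 in WT macrophages. The KO arrays were below the WT arrays by 1 log2 unit or more in the means of both cultures. Racgap1, which with Kif23 forms the centralspindlin complex that recruits Ect2, read 7.06, 6.74 and 6.18 in KO TAMs, against 9.24, 8.10 and 9.48 in WT TAMs, and 6.72, 6.70 and 6.41 in KO macrophages, against 8.36, 8.43 and 8.36 in WT macrophages. The falls of Anln, Ect2 and Racgap1 were 5.43-fold, 4.80-fold and 4.85-fold in TAMs and 2.88-fold, 3.15-fold and 3.41-fold in macrophages.

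Top2a, the topoisomerase that untangles chromosomes, and Mki67, the Ki-67 protein that coats them and is used as a marker of dividing cells, fell in both cultures. Top2a read 7.88, 7.92 and 6.97 in KO TAMs, against 10.10, 9.32 and 10.27 in WT TAMs, and 7.88, 7.96 and 7.95 in KO macrophages, against 9.59, 9.66 and 9.62 in WT macrophages, and was 4.94-fold and 3.23-fold lower in KO TAMs and KO macrophages (adjusted p = 0.000258 and 0.00176). Mki67 read 9.82, 9.21 and 8.47 in KO TAMs, against 11.29, 10.17 and 11.32 in WT TAMs. In macrophages it read 9.16, 9.17 and 9.18 in KO macrophages, against 10.42, 10.77 and 10.64 in WT macrophages. The WT TAM and WT macrophage arrays overlapped, and Mki67 was 3.38-fold and 2.72-fold lower in KO TAMs and KO macrophages.

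The 2 transcription factors of these genes were lower in KO cells too. Foxm1 read 6.12, 5.77 and 5.71 in KO TAMs, against 7.90, 6.96 and 7.96 in WT TAMs, and 6.23, 5.99 and 6.23 in KO macrophages, against 7.46, 7.07 and 7.08 in WT macrophages, a 3.35-fold fall in TAMs (adjusted p = 0.000644) and a 2.08-fold fall in macrophages (adjusted p = 0.0124). Mybl2 had the smallest differences of the 49 genes in both cultures. It read 5.75, 5.84 and 6.01 in KO TAMs, against 6.51, 6.40 and 7.02 in WT TAMs, and 5.86, 5.59 and 6.04 in KO macrophages, against 6.43, 6.61 and 6.47 in WT macrophages, and its differences were -0.77 ± 0.16 and -0.67 ± 0.16 (adjusted p = 0.00824 and 0.0181). Mybl2 was the only member with a second probe set, which read between 4.21 and 4.97 on the 12 arrays, differed by -0.06 in TAMs and 0.21 in macrophages, and so did not show the fall. With the mean of both probe sets the call of Mybl2 was lost in both cultures (adjusted p = 0.0581 in TAMs and 0.305 in macrophages).

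**Figure D3:**
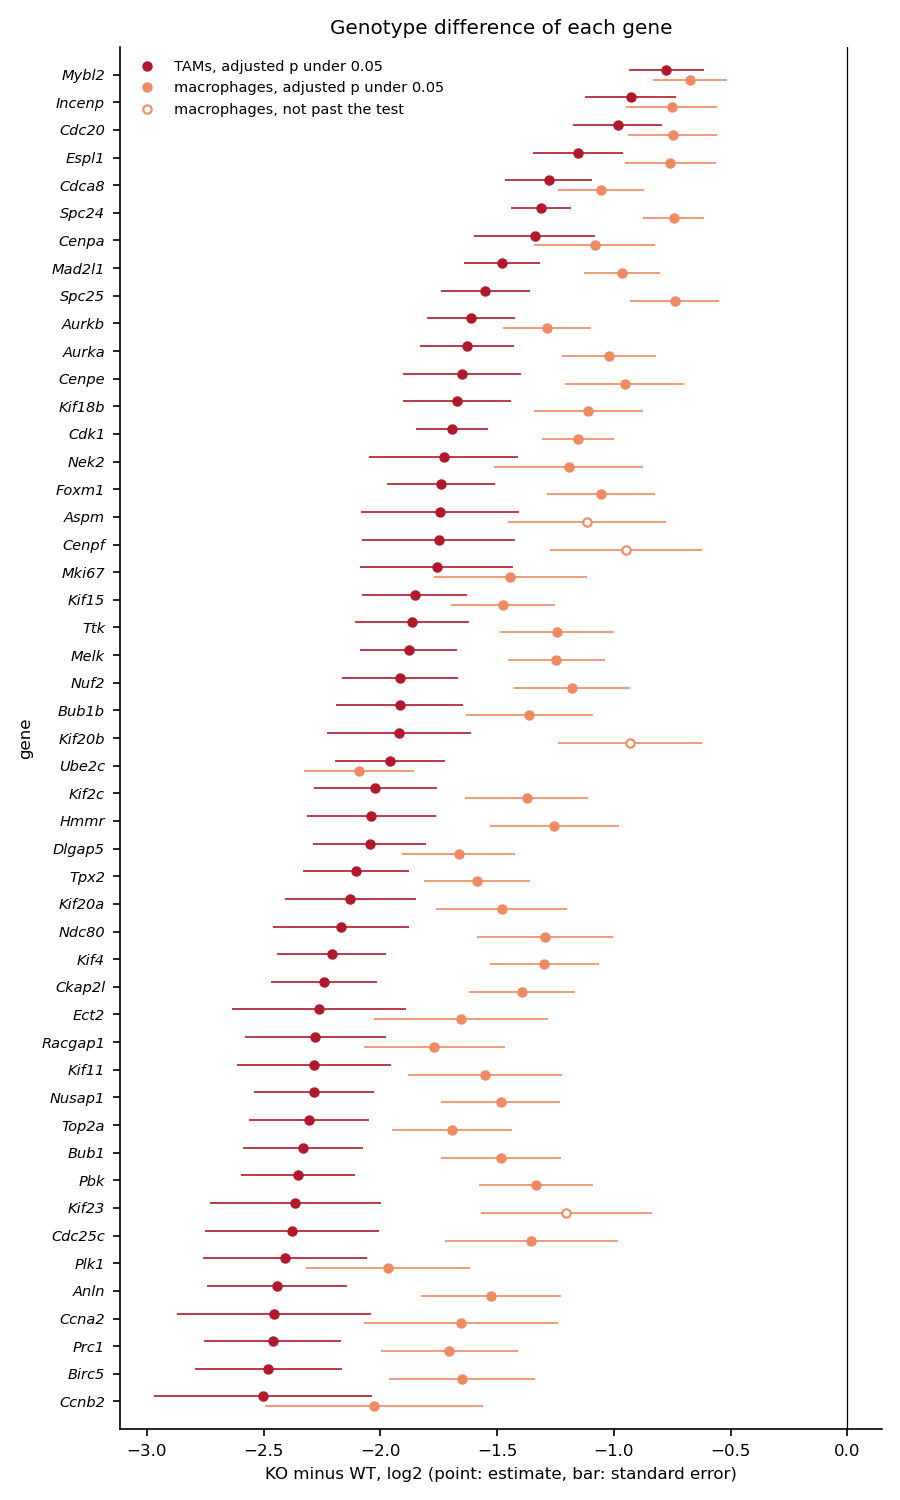
KO minus WT difference (log2 ± standard error) of each of the 49 genes in TAMs (dark red, upper point) and macrophages (orange, lower point), sorted by the TAM difference, with open points for differences that did not pass the test. All points lie below 0, from -0.67 to -2.50, the 4 open points are macrophage differences, and the TAM point lies further left in 48 of 49 rows.

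The order of the 49 genes by size of the genotype difference was alike in the 2 cultures, whose arrays are not shared: over the genes, the TAM and macrophage differences had a Pearson r of 0.805 and a Spearman rho of 0.823, against an r of 0.716 over all genes, which are not independent of each other. In TAMs 46 of the 49 were among the 500 largest falls of all genes, and in macrophages 42. Genes with a CHR match in their promoter (30 measured) had a median difference of -1.94 in TAMs and -1.30 in macrophages, and those without (9 measured) of -1.88 and -1.19. In TAMs the differences ran from -2.50 to -0.98 with a match and from -2.48 to -0.77 without, and in macrophages from -2.09 to -0.74 with a match and from -1.65 to -0.67 without. Birc5, with a difference of -2.48 in TAMs, had no match in its window.

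Leaving out any 1 of the 12 arrays left all 49 falls past the test in TAMs. In macrophages 30 of the 45 falls passed whichever array was left out, and the count of falls was lowest, at 31, without WT macrophage 3. The 15 that missed the test at least once, with adjusted p up to 0.114, were Ccna2, Ccnb2, Cdc20, Cdc25c, Cenpa, Cenpe, Ect2, Espl1, Foxm1, Incenp, Mki67, Mybl2, Ndc80, Nek2 and Spc25, each time upon the loss of a macrophage array. When only the 6 arrays of a comparison were fitted, 49 genes passed in macrophages and 38 in TAMs, where Ccnb2, Ccna2, Mki67 and 8 others did not (adjusted p up to 0.0984).

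Differences with co-culture were smaller, and their medians were below 0 in KO cells and above 0 in WT cells, at sizes that depended on single arrays. Between WT TAMs and WT macrophages, 1 of the 49 genes passed as higher and none as lower, where 5.89% and 5.66% of all genes were called higher and lower, and 3 of the 49 (6.12%) had an unadjusted p under 0.05, against 23.5% of all genes. The median difference was 0.31, with 47 of 49 genes above 0, and the median over all genes was 0.01. The median became 0.10 without WT TAM 3 and 0.62 without WT TAM 2. The gene that rose was Spc25, by 0.74 ± 0.19, or 1.67-fold (adjusted p = 0.0265), and it lost its call without WT TAM 1, WT TAM 3 or any of the WT macrophage arrays (adjusted p up to 0.102). Cenpa had the largest difference (0.80 ± 0.26, adjusted p = 0.0689). Between KO TAMs and KO macrophages, limma called none of the 49 genes, where 2.9% of all genes were called higher and 3.63% lower, and 6 (12.2%) had an unadjusted p under 0.05, against 20.1% of all genes. The median difference there was -0.32, with 44 of 49 genes below 0, the lowest being Pbk (-0.75 ± 0.24, adjusted p = 0.0975) and the highest Cenpa (0.55 ± 0.26). The median became -0.04 without KO TAM 3 and -0.52 without KO TAM 1.

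The arrays of the TAM groups differed widely in these genes, and the macrophage arrays did not. The mean level over the 49 genes was 6.87, 6.69 and 6.09 on the KO TAM arrays and 8.68, 7.82 and 8.89 on the WT TAM arrays. It was 6.79, 6.86 and 6.87 on the KO macrophage arrays and 8.14, 8.16 and 8.13 on the WT macrophage arrays. WT TAM 2 was the lowest WT TAM in 49 of 49 genes and below every WT macrophage array in 43, whereas WT TAM 3 was above every WT macrophage array in 49 and WT TAM 1 in 47. KO TAM 3 was the lowest KO TAM in 43 genes and below every KO macrophage array in 45, and KO TAM 1 was the highest KO TAM in 36. These counts were made for the 49 genes alone, and the share over all genes was not counted. The genes moved together within groups (median r of 0.890 after group means were subtracted), so the counts are not separate observations. The median SD of the 49 genes was 0.45 in KO TAMs and 0.57 in WT TAMs, against 0.14 in both over all genes. For KO macrophages it was 0.11 and for WT macrophages 0.07, against 0.10 in both over all genes.

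Without WT TAM 2, 17 of the 49 genes passed as higher in WT TAMs against WT macrophages, in a fit that called 12% of all genes in either direction. In the same fit 4 of the 49 passed as lower in KO TAMs than in KO macrophages, and none as higher. As a count in either direction, that is close to the 8.74% of all genes called there in either direction. The 17 included Cdk1 (0.51), Aurkb (0.48), Bub1 (0.79), Mad2l1 (0.64), Ttk (0.78), Foxm1 (0.73) and Tpx2 (0.77), and the 4 were Ckap2l, Kif4, Melk and Pbk. WT TAM 2 and KO TAM 1 were the arrays of lowest weight when arrays were weighted by their fit. Without both, the counts were 32 and 11, and 18.3% and 9.68% of all genes were called in either direction. The 17 and the 32 rest on the 2 WT TAM arrays in which the genes were high. The KO differences of the 4 contain no WT TAM array and were as large in the fit to all arrays, while those of the 11 rest on KO TAM 2 and KO TAM 3.

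**Figure D4:**
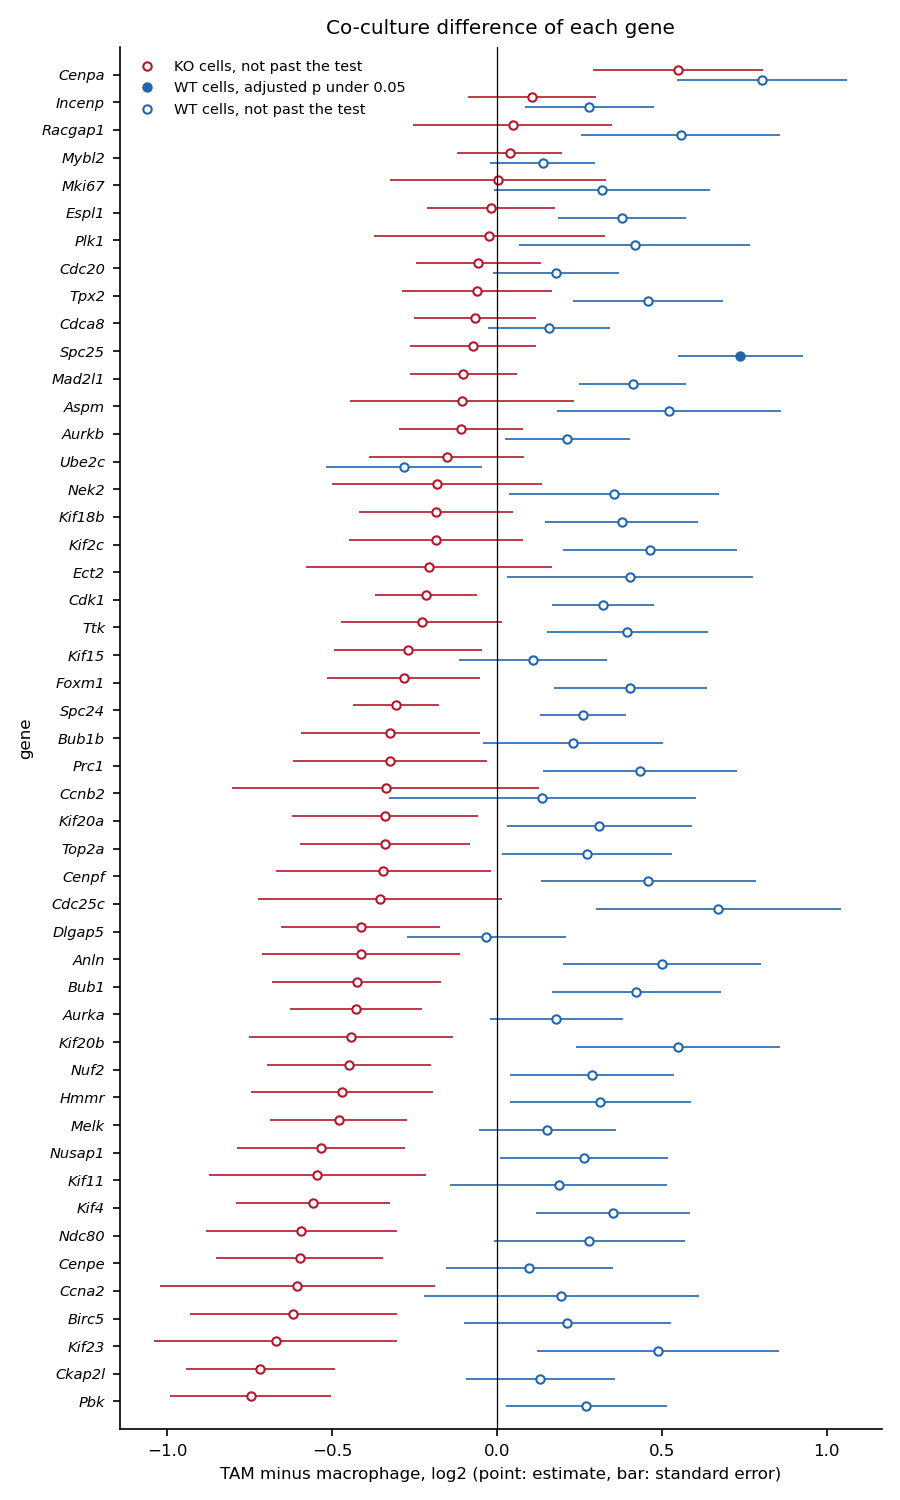
TAM minus macrophage difference (log2 ± standard error) of each of the 49 genes in KO cells (red, upper point) and WT cells (blue, lower point), sorted by the KO difference, with a filled point where the test was passed. WT points lie mostly above 0 and KO points mostly below it, and Spc25 in WT cells is the only filled point.

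The difference between the 2 co-culture differences, equally the difference between the genotype differences of the 2 cultures, was tested as an interaction, since the co-culture and genotype comparisons are made from the same arrays. None of the 49 genes passed by limma, where 0.194% of all genes did, and 11 (22.4%) had an unadjusted p under 0.05, against 9.6% of all genes. The interaction was below 0 in 48 of the 49 genes, with a median of -0.62 against -0.02 over all genes, from -1.16 for Kif23 to 0.13 for Ube2c. A larger fall in TAMs than in macrophages was thus seen in nearly all of the genes and was not past the test in any. Without WT TAM 2, 9 genes passed (Bub1, Foxm1, Kif20b, Kif4, Mad2l1, Melk, Pbk, Spc25 and Ttk), and without both WT TAM 2 and KO TAM 1, 36 did, where 1.11% and 6.74% of all genes passed. The median became -0.97 without WT TAM 2 and -0.40 without KO TAM 3.

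Over the 12 arrays the 49 genes kept close to 1 pattern. The Pearson r between pairs of them had a median of 0.967 (0.753 to 0.998 over 1176 pairs), and of 0.890 after the mean of each group was subtracted, where the points share arrays and normalization. Cenpa had the lowest r with the mean of the 49 genes, at 0.879. Of the genes outside the list, those whose levels followed that mean most closely over the 12 arrays were the condensin subunit Ncapd2 (r = 0.995), BC055324, Tacc3, a spindle protein, Pole2, a DNA polymerase epsilon subunit, the helicase Blm, the DNA repair gene Fancd2, the condensin subunit Ncaph and Prr11. Levels ran most against it in Sugct, Ndufc2, Itch and Calhm6 (r from -0.980 to -0.965). Ncapd2 read 7.05, 6.72 and 6.27 in KO TAMs, against 8.80, 8.05 and 9.02 in WT TAMs.

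The fall in KO cells reached other genes of the cell cycle to different degrees. Over all genes, 7.19% were called lower in KO TAMs and 6.13% in KO macrophages. Of 58 other mitosis genes measured, 52 fell in KO TAMs and 44 in KO macrophages (medians -1.48 and -0.93). Among them Shcbp1, a midbody protein, had the largest fall in TAMs (-2.52 ± 0.25), followed by the kinetochore scaffold Knl1 (-2.26), Parpbp (-2.11) and the CDK subunit Cks2 (-2.11). In macrophages the kinesin Kif14, Shcbp1, the kinetochore gene Ska3 and Cdkn3 fell most, by 1.59, 1.56, 1.54 and 1.52 on the log2 scale. Wee1, the kinase that holds Cdk1 inactive, was the only 1 of the 58 to pass between WT TAMs and WT macrophages. It was higher in WT TAMs (0.86 ± 0.17), where 5.89% of all genes were called higher, a larger share than in this list (1.72%). Of 40 S phase genes, 39 fell in KO TAMs and 32 in KO macrophages (medians -1.26 and -0.88), led in TAMs by the ribonucleotide reductase gene Rrm2 (-2.33) and the helicase gene Mcm5 (-2.31). Their mean on each array was 6.51, 6.71 and 6.53 in KO TAMs, against 7.94, 7.53 and 8.18 in WT TAMs, so that WT TAM 2 was again the lowest WT TAM.

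Subunits of complexes that act in mitosis but serve other tasks too moved less. Over all genes, 7.19% were called lower and 5.03% higher in KO TAMs, and 6.13% lower and 5.19% higher in KO macrophages. For the lists below, 1 rise is close to those shares. Of 16 condensin and cohesin genes, 10 fell and 2 rose in KO TAMs, and 5 fell and 1 rose in KO macrophages (medians -0.48 and -0.27). The falls were led in TAMs by Esco2 (-2.12), the condensin genes Ncapd2 and Ncaph (-1.94 and -1.72) and Smc2 (-1.52). Of 17 APC/C subunits and inhibitors, 4 fell and 1 rose in each culture (medians -0.15 and -0.04), and the largest fall was that of Fbxo5, the inhibitor Emi1 (-1.57 in TAMs and -0.92 in macrophages). Of 12 DREAM and MuvB genes, 6 fell and 1 rose in KO TAMs and 5 fell and 1 rose in KO macrophages. Rbl1, the pocket protein p107, fell most (-1.09 and -0.86), and Rbl2, the pocket protein p130 of resting cells, rose in KO macrophages (0.48 ± 0.09, adjusted p = 0.00546). Of 18 CDK inhibitors and G1 cyclin genes, 8 fell and 2 rose in KO TAMs and 7 fell and 1 rose in KO macrophages (medians -0.17 and -0.41).

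Genes of that last list that promote and that restrain the cycle were both among those lower in KO cells. The 2 of the same list that rose in KO TAMs, Btg2 and Cdkn1b, restrain the cycle, and the 1 that rose in KO macrophages was Btg2. Over all genes 5.03% were called higher in KO TAMs and 5.19% in KO macrophages. Ccnd2, cyclin D2, read 7.53, 7.03 and 6.06 in KO TAMs, against 8.31, 9.52 and 8.59 in WT TAMs, and 5.17, 5.17 and 5.64 in KO macrophages, against 7.21, 7.44 and 7.26 in WT macrophages. It was 3.81-fold and 3.93-fold lower in KO TAMs and KO macrophages, and higher in TAMs than in macrophages of both genotypes (1.55 in KO cells and 1.50 in WT cells). Unlike the mitosis genes, Ccnd2 was highest on WT TAM 2, the array with the highest stromal mean. Ccnd1, cyclin D1, fell in KO TAMs (-1.38 ± 0.30, adjusted p = 0.0111), and in macrophages its difference of -0.41 did not pass (adjusted p = 0.447). Cdkn2c, the CDK inhibitor p18, was lower in KO TAMs (-1.52 ± 0.30, adjusted p = 0.00686) and in KO macrophages (-1.15 ± 0.30, adjusted p = 0.0301). Cdk6, a kinase of D-type cyclins, differed by -1.32 in TAMs and -1.21 in macrophages. Btg2, an antiproliferative gene, rose in KO macrophages (0.92 ± 0.10, adjusted p = 0.000279). It also rose in KO TAMs, by 0.83, averaging 8.77 there, against 7.93 in WT TAMs. Cdkn1b, the inhibitor p27, was 1.85-fold lower in WT TAMs than in WT macrophages (adjusted p = 0.00127). Cdkn1b rose in KO TAMs, averaging 8.39 there, against 7.73 in WT TAMs. It averaged 8.98 in KO macrophages, against 8.61 in WT macrophages, a difference that did not pass.

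**Figure D5:**
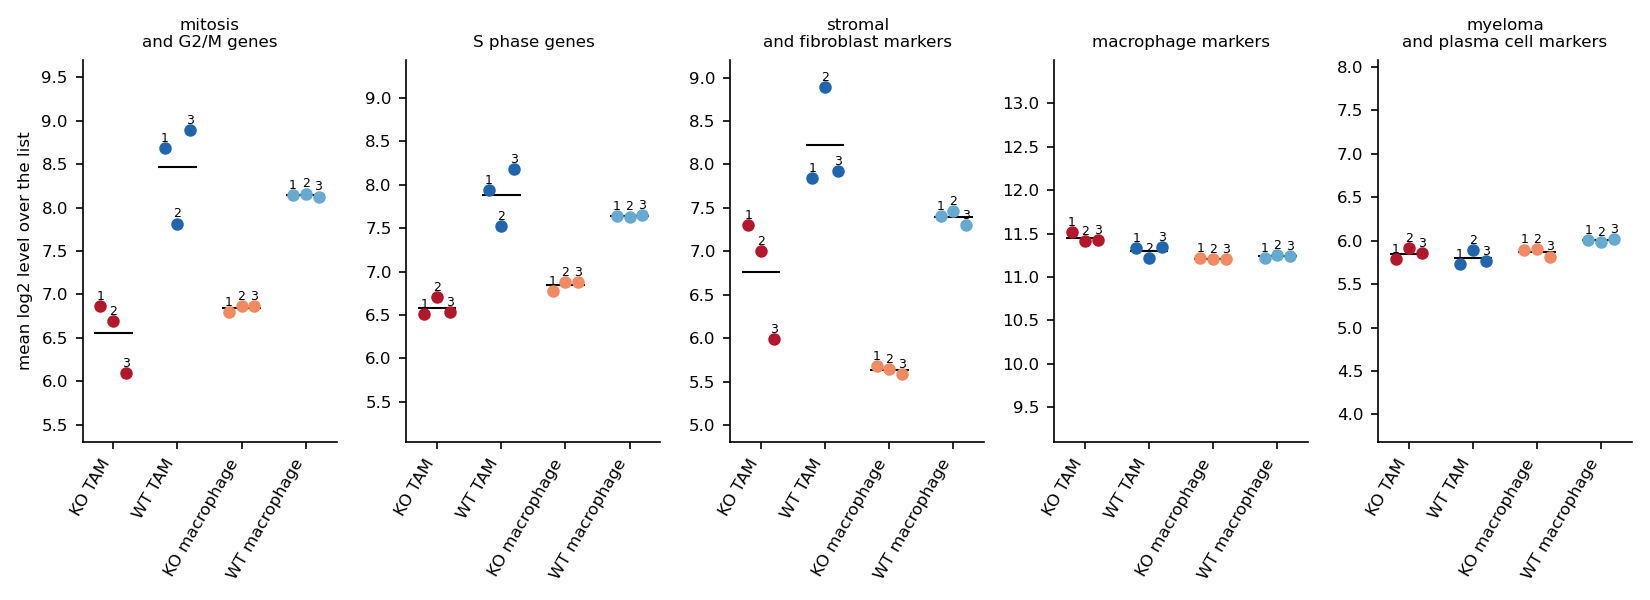
Mean log2 level over 5 gene lists on each array (points, numbered by array) in each of the 4 groups, with the group mean as a line and axes of equal span. The mitosis, S phase and stromal means are lower in KO than in WT groups of the same culture, WT TAM 2 is low in the first pair and high in stromal markers, and the macrophage and myeloma marker means stay between 11.21 and 11.51 and between 5.73 and 6.02 over the 12 arrays.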

How the data were processed

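The authors deposited linear-scale intensity values, 1 per probe set and array. Per the submitters' processing notes the tools were RMA and limma, with no version. RMA corrects background, gives all arrays 1 distribution and summarises probes, so that a shift of most genes would be hidden. No genome build was named. No value was missing, and 0 columns were of other samples. Log2 was taken without a pseudocount. Of 41345 probe sets, 23521 had 1 gene symbol by the array's annotation, 1814 several and 16010 none. Those with 1 symbol were used, and per gene (22180) the probe set with the highest mean was kept, with no filter on level. Differences came from limma 3.58.1 in R 4.3.3 (lmFit and eBayes, 4 group means, 12 arrays, 8 residual degrees of freedom), with Benjamini-Hochberg adjustment over all genes, and the code was tested on simulated data. The members and gene lists were chosen with earlier results of these data known. Values on every array are given for members that passed in a comparison (the 15 with the largest difference) and for 10 genes always shown, Ccnb1 among them without a value, and for each other list up to 4 called genes per comparison were considered for naming. Genes of like pattern are the 8 with the highest and 4 with the lowest Pearson r with the members' mean. Promoter windows are RefSeq's, for GRCm38.p6. Alternatives covered normalization, filters, probe sets, array weights, left-out arrays, the replicate number as a block and a stromal covariate, the last added after seeing the data. The number of arrays limits the precision.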

Additional observations from a re-analysis of the deposited data

How the results depend on the processing

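The directions of the called differences did not change under any of the 23 alternatives run. The number of mitosis genes that passed between WT TAMs and WT macrophages, 1 in the fit reported, was 2 among genes above the median level (26.8% of all genes called), 16 with array weights (17.9%), 0 when only the arrays compared were fitted (11.4%), 32 without WT TAM 2 and KO TAM 1 (18.3%), and 0 to 17 when each array was left out in turn, with 17 without WT TAM 2. For KO TAMs against KO macrophages, with 0 called, it was 5 lower with array weights (12.2% of all genes called), 11 lower without WT TAM 2 and KO TAM 1 (9.68%), and 0 to 4 with each array left out. For the interaction, with 0 called, it was 7 (3.43% of all genes), 36 (6.74%, with a median of -1.14 in place of -0.62) and 0 to 9 under the same alternatives. For KO against WT macrophages, 45 called, it was 31 to 49 with each array left out and 2 with the stromal covariate, and the median of -1.30 became -1.24 when arrays were quantile normalized again, -1.27 when centred on their medians, -1.15 with log2(intensity + 16), -1.37 with the covariate and -1.32 to -1.24 with each array left out. For KO against WT TAMs, 49 called, it was 27 with the covariate, and the median of -1.92 became -2.48 without WT TAM 2 and KO TAM 1. The cause of these changes was not tested.

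With the replicate number as a block, the counts were 1 for WT TAMs, 0 for KO TAMs against macrophages, 43 for KO macrophages, 49 for KO TAMs against WT TAMs and 0 for the interaction. Arrays of different groups with the same number deviated together with r from -0.06 to 0.27 (18 pairs), and those with different numbers with r from -0.28 to 0.07 (36 pairs). Between the TAM groups the same-number values were 0.27 for array 1, 0.25 for array 2 and 0.03 for array 3, and KO TAM 3 correlated best with WT TAM 2 (0.07), the other TAM arrays with their own number. The labels do not say that a number marks a shared source and not every pair was above 0.1, so whether the numbers pair the TAM samples is not settled, and they were not treated as pairs.

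With 3 arrays a group and TAM arrays that vary more than macrophage arrays, the spread used for each gene lies between those of the TAM and macrophage groups. Differences smaller than that spread were not detectable with this number of arrays. Some larger differences, such as that of Kif23 in macrophages, did not pass the test either. A gene that did not pass is therefore not shown to be unchanged. Apart from remarks on which readings were low or high, levels of different probe sets were not set against each other.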
